A study of Mus musculus with 21 samples.

Results

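Mouse mammary tumors rich in leukocytes were set against tumors poor in them by the level of *Ptprc*, the gene of the pan-leukocyte surface phosphatase CD45. Of the 21 tumors with RNA sequencing, the 7 with the highest *Ptprc* (Ptprc-high tumors) were compared with the 7 with the lowest (Ptprc-low tumors), and the 7 between them were left out of that comparison. The tumors were selected on their *Ptprc* values, as log2 CPM (read counts scaled to library size) with TMM, which corrects library size for composition, and a prior count of 2. *Ptprc* itself chose the groups, and its difference between them is described without a test. A gene called between the groups is one whose RNA went with the *Ptprc* cut in the same libraries, not a gene that answered to a treatment.

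All tumors carried FloxNeoNeuNT, in which an activated *Neu* cDNA sits at the mouse *Erbb2* locus behind a loxP-flanked cassette that Cre removes, and MMTV-CreNLST, in which the MMTV promoter drives Cre recombinase in mammary epithelium. The RhoC cohort (R tumors) also carried R26(RhoC/+), a Cre-dependent wildtype *RhoC* at the Rosa26 locus, and gave 12 tumors. The controls (N tumors) gave 9 tumors from 9 mice, and 7 of these carried Gata4(loxP/+), a floxed *Gata4* allele. The mice were females that had not been bred, and the labels give no ages. Several R tumors shared a mouse: 4 came from mouse P497 and 2 from mouse N9255. R-18, whose label names no mouse, was counted as a mouse of its own.

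CD45 is carried by nearly all leukocytes and is absent from epithelium, endothelium and fibroblasts. It is a tyrosine phosphatase that sets the activity of Src family kinases, which in turn phosphorylate the ITAM motifs of the T cell receptor, the B cell receptor and Fc receptor complexes. In mammary tumors the leukocytes are known to be mostly macrophages and monocytes, with T cells, B lineage cells, dendritic cells, neutrophils and mast cells in differing amounts. In RNA from a whole tumor, fewer cells of a type and less RNA per cell cannot be told apart.

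*Ptprc* (ENSMUSG00000026395.16, chr1:138063407-138175306 on GRCm38.p6) was counted in every tumor, from 2082 reads in R-18 to 13931 in N-8. In the Ptprc-high tumors it stood at 168 CPM in R-2, 162 in N-8, 141 in N-4, 136 in N-15, 125 in N-3, 123 in R-15 and 115 in R-16. In the Ptprc-low tumors it stood at 65.8 CPM in R-21, 59.7 in R-13, 47.5 in N-7, 45.5 in R-1, 44.0 in R-18, 40.8 in N-1 and 32.2 in N-9. The levels ran without a clear step from top to bottom. The highest and the lowest tumor differed 5.21-fold, and the lowest Ptprc-high tumor was 1.75-fold above the highest Ptprc-low tumor.

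Just outside the upper group lay R-6 with 115 CPM, only 0.00259 below R-16 on the log2 scale, and just outside the lower group lay R-7 with 68.5 CPM, 0.0575 above R-21. Between these bounds lay N-17 (96.8 CPM), R-14 (79.8), R-12 (74.0), R-10 (69.6) and N-6 (69.1) as well. The deposited FPKM values of *Ptprc*, which are scaled per length of gene, had medians of 26.3 in the Ptprc-high and 8.74 in the Ptprc-low tumors.

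**Figure D1:**
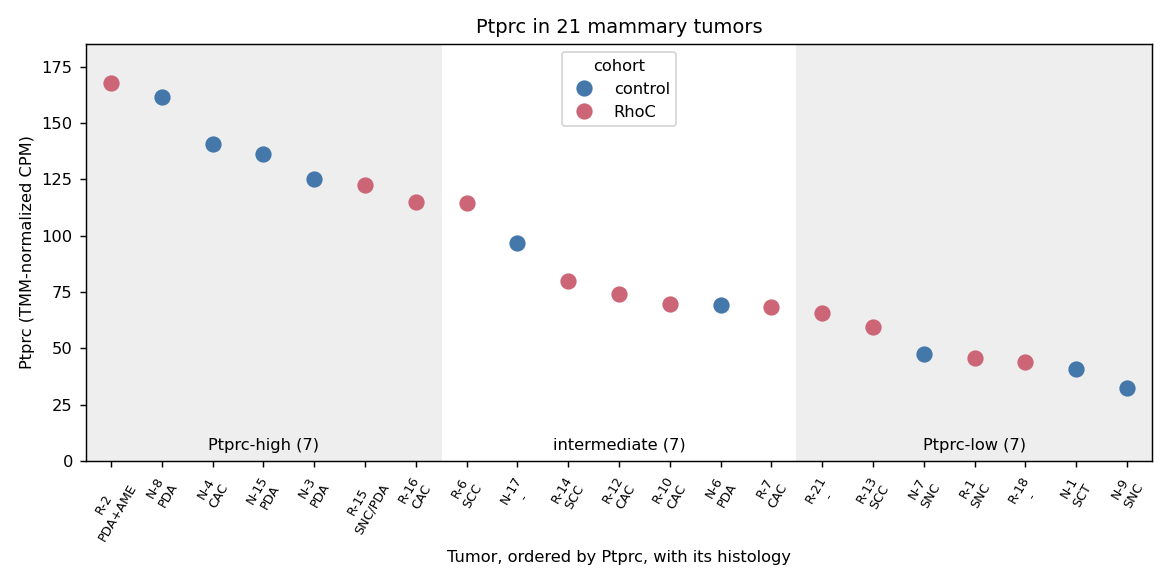
*Ptprc* level (TMM-scaled CPM) in each of the 21 tumors, ordered from highest to lowest and marked by cohort, with the bounds of the 7 highest and the 7 lowest tumors. The Ptprc-high tumors run from 115 to 168 CPM and the Ptprc-low tumors from 32.2 to 65.8 CPM, and tumors of both cohorts lie in each group.

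Both cohorts were present in each group. The Ptprc-high tumors were 4 controls and 3 RhoC tumors from 6 mice, and the Ptprc-low tumors were 3 controls and 4 RhoC tumors from 7 mice. A two-sided Fisher's exact test of cohort against group gave p = 1.0. Of the controls, 3 of 4 in the Ptprc-high and 3 of 3 in the Ptprc-low tumors carried the floxed *Gata4* allele. Over all 21 tumors *Ptprc* had a median of 96.8 CPM in controls (32.2 to 162) and of 71.8 CPM in RhoC tumors (44.0 to 168). The difference in mean log2 CPM, RhoC minus control, was -0.05 (two-sided exact permutation test, p = 0.884 over 293930 labelings), and its sign turned when any of 6 tumors was left out. The 4 tumors of mouse P497 spread from 59.7 to 123 CPM and fell into all 3 ranges, and the 2 of mouse N9255 stood at 115 and 68.5 CPM.

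Histology, as the study's table of tumors gives it and not as the labels do, is given here by the first type named for each tumor, and some entries, such as that of N-8, name further lesions. Solid nodular carcinoma is recorded in both groups, since it is 1 of the further lesions of N-8 and 1 of the types between which the entry of R-15 leaves the choice. The Ptprc-high tumors were 3 poorly differentiated adenocarcinomas (N-8, N-15 and N-3), 1 poorly differentiated adenocarcinoma with adenomyoepithelioma (R-2), 1 solid nodular carcinoma or poorly differentiated adenocarcinoma (R-15) and 2 complex adenocarcinomas (N-4 and R-16). The Ptprc-low tumors were 3 solid nodular carcinomas (N-7, R-1 and N-9), 1 squamous cell carcinoma (R-13), 1 spindle cell tumor (N-1) and 2 of no stated type (R-21 and R-18). Over all 21 tumors the 3 solid nodular carcinomas had 32.2 to 47.5 CPM of *Ptprc*, below all 4 poorly differentiated adenocarcinomas, which had 69.1 to 162 CPM. The 5 complex adenocarcinomas ran from 68.5 to 141 CPM and the 3 squamous cell carcinomas from 59.7 to 115 CPM. These are descriptions without a test, and the histology and the *Ptprc* group of these tumors cannot be told apart.

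Libraries held between 47309780 and 100741339 counted reads (median 62484232). A few stood apart in ways that touch the lineages. R-2 held 876 CPM of the complement receptor gene *Cr2*, 781 of the B cell and plasmacytoid factor *Spib* and 415 of the chemokine gene *Ccl20*, where no other tumor passed 2.16, 4.42 and 1.23 CPM, while its *Ms4a1* was at 0.314 CPM. N-8 held genes of immature neutrophils (32.8 CPM of *Mpo* and 72.8 of *Ngp*), and N-15 the highest interferon response genes. Skeletal muscle genes were present in N-3, N-7 and R-1 (as well as in N-17 and R-10 of the intermediate tumors), and N-8 and N-4 were the tumors of gland 4 in the Ptprc-high group, beside which the inguinal lymph node lies. Of 7 lymph node stroma genes 3 were tested and edgeR called 0, with a median log2 fold change between the groups of 2.34 (0.13 without N-3). *Ccl21a*, which has close paralogs and was counted from uniquely mapping reads, had no count in any tumor and *Ccl19* at most 0.0995 CPM, while R-2 held 6.10 CPM of *Madcam1* and 4.13 of *Chst4*, against at most 0.284 and 0.0284 in any other tumor. *Rhoc* did not separate the labelled cohorts (26.1 to 173 CPM in controls and 22.5 to 146 in RhoC tumors), and R-2, labelled as a RhoC tumor, had the lowest value of all 21 tumors. The part of these in each result was not tested.

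Of 18872 genes tested with edgeR's quasi-likelihood test, *Ptprc* left out, 63 were higher and 4 lower in the Ptprc-high tumors at a Benjamini-Hochberg adjusted p under 0.05, which is 0.355% of all genes tested (0.334% higher and 0.0212% lower). Without a correction 2847 genes (15.1%) had p under 0.05. The called genes that were higher had log2 fold changes of 0.79 to 5.08 (median 1.59), against a median of -0.03 over all genes. In 50 of the 63 all Ptprc-high tumors lay above all Ptprc-low tumors, as did 91 of all genes tested (0.482%), and in 20 (0.106%) all lay below. R-15 and R-16 share mouse P497, and with counts summed per mouse edgeR called 11 genes, all of them higher. DESeq2 called 924 genes (3.82% of those with an adjusted p), all 67 among them. Of its calls 59.3% were higher, against 94.0% in the quasi-likelihood test, 91.8% of 146 calls by voom and 68.5% of 260 calls in the quasi-likelihood test without R-13.

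The number of called genes moved with single tumors. It was 2 without N-7, 7 without R-18, 8 without N-1, 9 without R-15, 11 without R-16, 13 without N-8, 14 without R-1, 15 without N-9, 16 without N-4, 20 without N-15, 28 without N-3, 51 without R-2, 95 without R-21 and 260 without R-13. *Plek* was among the 2 genes called in every one of these fits. Without both tumors of gland 4, or without the 3 tumors with skeletal muscle genes, edgeR called 0 genes, with 2144 and 2266 at an unadjusted p under 0.05. As the 63 genes were chosen for being higher in these same tumors, their sign in these fits was largely fixed in advance. All 63 had a positive log2 fold change in each of these fits. The same held in the other alternatives, except with tumors ranked by the pan-leukocyte list, where *Cdh2* (N-cadherin) had -0.05 and *Dock2*, a gene of that list, was not in the fit.

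**Figure D2:**
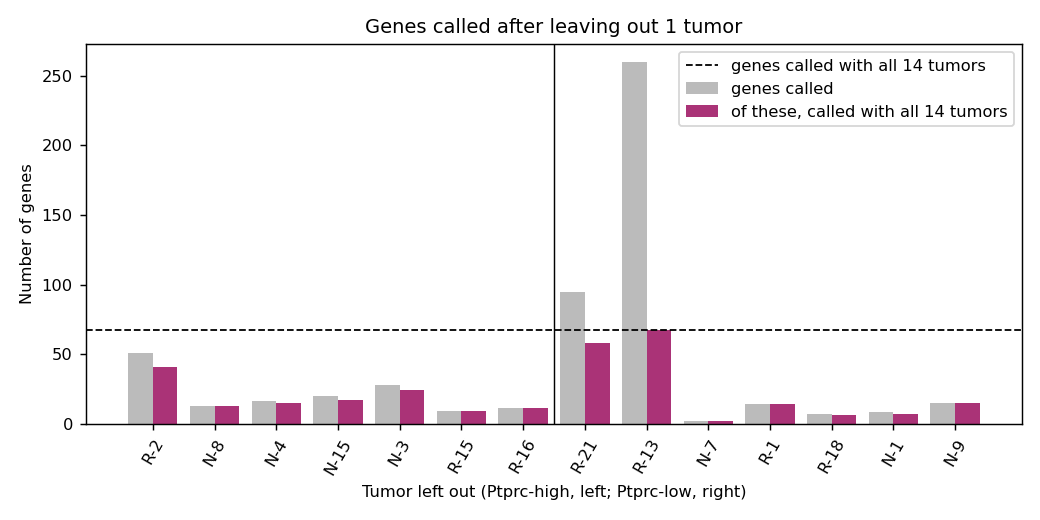
Number of genes called between Ptprc-high and Ptprc-low tumors (edgeR, adjusted p under 0.05) when each of the 14 tumors was left out in turn (grey bars), how many of these were also called with all 14 (purple bars), and the number with all 14 (dashed line, 67). Counts run from 2 without N-7 to 260 without R-13.

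*Plek* (chr11:16971206-17052381), the gene of pleckstrin, the major protein kinase C substrate of platelets and leukocytes, had 71.5, 102 and 148 CPM as lowest, median and highest value in the Ptprc-high tumors and 21, 32.5 and 42.2 in the Ptprc-low tumors. The groups did not overlap, and its log2 fold change was 1.71 ± 0.19 (SE, n = 7 and 7, edgeR adjusted p = 0.00459). Its highest adjusted p with any 1 tumor left out was 0.024 (without N-9).

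A further 6 genes were among the 8 with the smallest adjusted p. *C3ar1*, the receptor for complement fragment C3a, had 69.8, 111 and 145 CPM in Ptprc-high and 23.2, 35.7 and 52.6 in Ptprc-low tumors, a log2 fold change of 1.59 (SE 0.23, edgeR adjusted p = 0.0151). *Ms4a6c*, a tetraspanning gene of monocytes that overlaps the gene *BE692007* and has close paralogs, had 53.4, 67.0 and 131 CPM against 11.97, 18.9 and 27.7, a log2 fold change of 1.86 (SE 0.26, edgeR adjusted p = 0.0151). *Marchf1*, a ubiquitin ligase that takes MHC class II off the surface of antigen-presenting cells, had 21.8, 30.3 and 43.2 CPM against 3.82, 6.84 and 13.3, a log2 fold change of 1.95 (SE 0.27, edgeR adjusted p = 0.0151). In none of these did the groups overlap. The adjusted p of each rose to 0.051 without N-7.

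*Cd84*, a SLAM family receptor of leukocytes, had 26.1, 44.1 and 72.1 CPM against 10.2, 13.8 and 19.8 (log2 fold change 1.63, SE 0.23, edgeR adjusted p = 0.0151, and 0.051 without N-7). *Dock2*, the Rac activator that leukocytes need to migrate, had 39.9, 48.0 and 64.0 CPM against 12.8, 19.8 and 30.3 (log2 fold change 1.35, SE 0.20, edgeR adjusted p = 0.0163). *Slc8a1*, a sodium and calcium exchanger known best from heart muscle and also present in macrophages, had 38.5, 53.5 and 80.4 CPM against 9.40, 20.5 and 22.7 (log2 fold change 1.57, SE 0.23, edgeR adjusted p = 0.0163). The groups did not overlap in any of the 3 genes. Without R-18 the adjusted p of *Dock2* and *Slc8a1* was 0.0527.

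**Figure D3:**
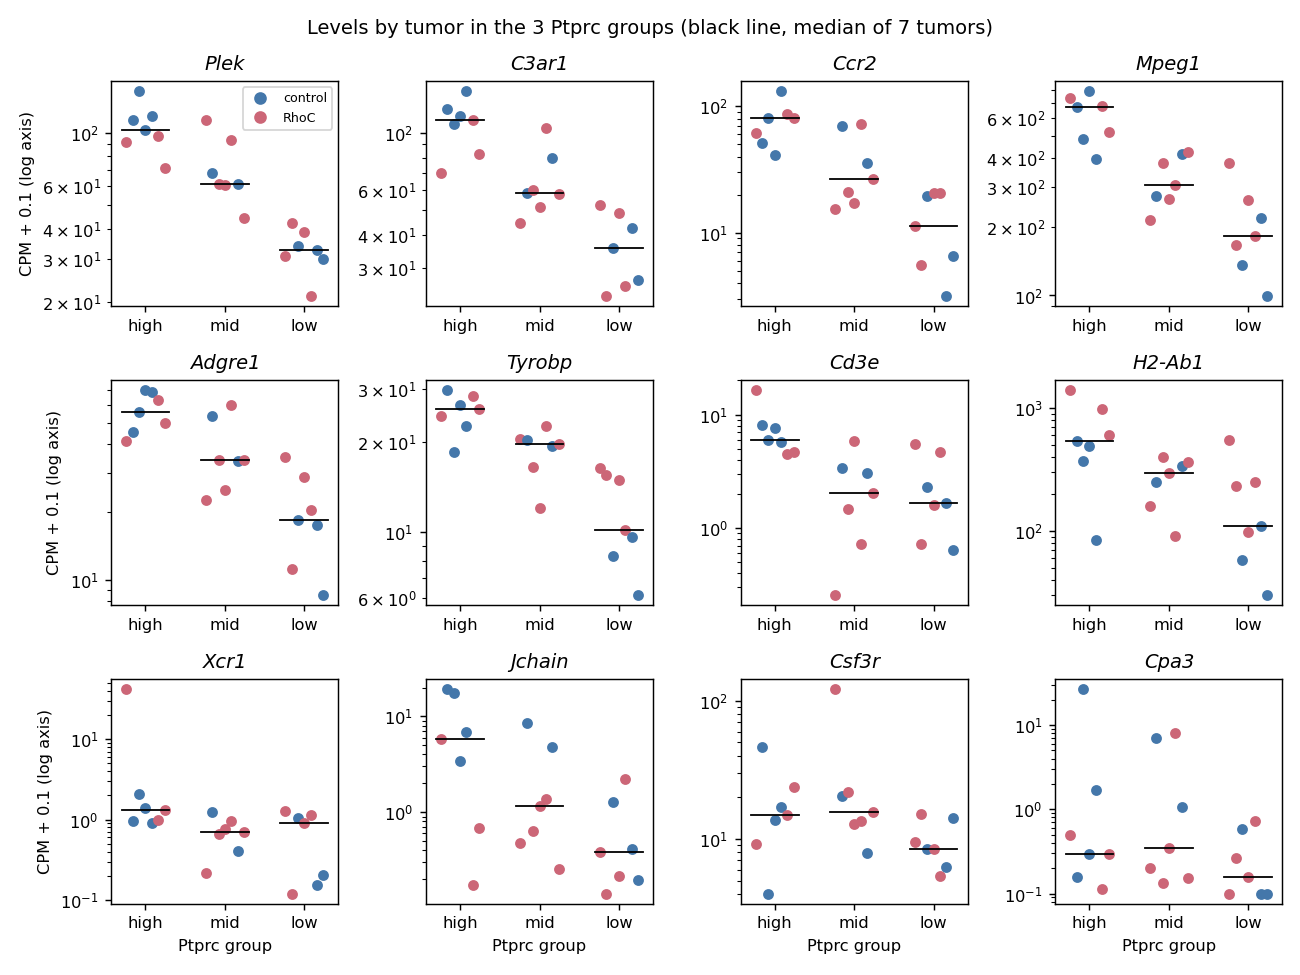
Level of 12 genes (CPM plus 0.1, log axis) in each tumor of the Ptprc-high, intermediate and Ptprc-low groups, coloured by cohort, with black lines at the median of 7 tumors. The points of *Plek*, *C3ar1*, *Ccr2*, *Mpeg1*, *Adgre1* and *Tyrobp* do not overlap between the Ptprc-high and Ptprc-low groups, while those of *Cd3e*, *H2-Ab1* and *Csf3r* do.

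In the edgeR fit of all 14 tumors the macrophage and monocyte list was the only 1 of the lineage lists with called genes. Of its 18 genes, all were tested, 3 were called higher, 16 had an unadjusted p under 0.05 on the higher side (8.39% of all genes did), and all 18 had a positive log2 fold change, with a median of 1.37. DESeq2 called 12. R-15 and R-16 are both of mouse P497, and edgeR called 0 genes of the list with counts summed per mouse, without mouse P497, with library size in place of TMM, with 5 against 5 or 10 against 10 tumors, or without any 1 of N-4, R-15, R-16, N-7, R-18 and N-9. In the fit without mouse P497 and in that of 5 against 5 tumors it called 1 B cell and 1 plasma cell gene in place of these. *Ccr2*, the receptor that brings monocytes from the blood, had 41.3, 81.0 and 131 CPM in Ptprc-high and 3.05, 11.1 and 20.7 in Ptprc-low tumors. N-3 was highest and the groups did not overlap, with a log2 fold change of 2.64 ± 0.43 (edgeR adjusted p = 0.0297, and 0.066 without N-9).

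*Mpeg1*, the gene of the pore-forming perforin-2 of phagocytes, had 397, 668 and 787 CPM against 99.3, 183 and 383, a log2 fold change of 1.58 ± 0.27 (edgeR adjusted p = 0.037). *Adgre1*, the F4/80 antigen of mouse macrophages, had 41.3, 55.8 and 69.9 CPM against 8.45, 18.3 and 35.1, a log2 fold change of 1.52 ± 0.28 (edgeR adjusted p = 0.0404). All Ptprc-high tumors lay above all Ptprc-low tumors in both genes, and R-21 was the highest of the Ptprc-low tumors. Both had an adjusted p of 0.109 without N-7.

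The other genes of the lineage were not called by edgeR. *Csf1r*, the receptor on which macrophage survival depends, had 88.8, 173 and 294 CPM against 28.9, 74.5 and 138 (log2 fold change 1.18, edgeR adjusted p = 0.12). *C1qa*, a chain of complement C1q that tissue macrophages make, had 50.9, 116 and 195 CPM against 17.9, 45.0 and 107 (log2 fold change 1.25, edgeR adjusted p = 0.143). In both the Ptprc-low tumors R-21 and R-1 reached into the range of the Ptprc-high tumors, and R-13 did so for *Csf1r*. *Mertk*, which takes up dying cells, had the smallest value on the list, with 12.8, 24.5 and 39.8 CPM against 11.9, 22.8 and 33.7 (log2 fold change 0.29, edgeR adjusted p = 0.681).

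The mean log2 CPM over the macrophage and monocyte list was 5.38, 5.93 and 6.18 in the Ptprc-high tumors as lowest, median and highest and 3.77, 4.57 and 5.07 in the Ptprc-low tumors, so that the groups did not overlap. R-2, with the highest *Ptprc* of all, was the lowest of the Ptprc-high tumors here, and N-3 the highest. Of the 7 tumors with the highest mean, 6 were Ptprc-high.

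Of the 67 called genes 4 were on a leukocyte list and 7 on any list. *Hgf*, *Zeb2*, *Vcan* and *Cdh2* were also among the called genes that were higher. Called genes of some phagocyte families are named here after their values were seen. Of 11 Toll-like receptor genes tested 4 were called higher, namely *Tlr8* (log2 fold change 1.78, edgeR adjusted p = 0.019), *Tlr13* (1.61, 0.037), *Tlr7* (1.81, 0.0423) and *Tlr1* (1.45, 0.0461). *Tlr8* had 15.5, 20.3 and 37.1 CPM in Ptprc-high and 4.36, 7.34 and 10.5 in Ptprc-low tumors. Of the 11 genes 10 were positive, and *Tlr5* had -1.28, with medians of 3.80 and 10.7 CPM (edgeR adjusted p = 0.451). Of 6 genes of the phagocyte NADPH oxidase 3 were called higher, among them *Cybb*, its catalytic subunit (109, 155 and 199 CPM against 23.2, 53.1 and 117), and *Ncf1* (24.8, 35.6 and 139 CPM against 8.18, 12.6 and 16.7). The groups overlapped in *Cybb* and not in *Ncf1*. *Cyba*, the partner of *Cybb*, was not called (log2 fold change 0.47, edgeR adjusted p = 0.576). Of 5 Fc receptor genes 1 was called higher, *Fcgr3* (1.27, edgeR adjusted p = 0.0451), and all 5 were positive. With N-7 left out *Cybb* and *Ncf1* had an adjusted p of 0.109 and *Tlr8* of 0.0636.

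Of 8 genes tested of the *Ms4a* cluster on chromosome 19, 4 were called higher (*Ms4a6b*, *Ms4a6c*, *Ms4a6d* and *Ms4a7*, with log2 fold changes of 1.69, 1.86, 1.47 and 1.53), and the paralogs among them can share reads that the counting discards. Of 7 cathepsin genes 2 were called higher. *Ctss*, a protease that trims the MHC class II invariant chain, had 221, 381 and 525 CPM against 51.9, 98.2 and 266 (log2 fold change 1.67, edgeR adjusted p = 0.0451). *Ctsc*, which activates granule proteases, had 219, 322 and 431 CPM against 117, 165 and 202 (log2 fold change 1.05, edgeR adjusted p = 0.037). Without N-7 their adjusted p was 0.12 and 0.109.

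The windows before the starts of some of these genes are shown because macrophage genes commonly carry a purine-rich ETS string, the kind bound by PU.1. The genes were picked for following the *Ptprc* cut, so their moving together was set by that choice. RefSeq promoter windows (GRCm38.p6, 250 bases before to 50 after a start) were found for 47 of the 63 called genes that were higher, 61 windows in all. The string AGGAAGT, searched on both strands, was in 12 of the 61 (19.7%) and in 9.35% of all 32851 windows. GAGGAAG was in 32.8% against 13.6% and GAGGAAGT, which contains both of the others, in 6.56% against 3.20%. The strings TGTGGTTT and GGGAAAGT, of the kind bound by RUNX and IRF factors, were each in 1.64% of the windows of called genes, against 1.78% and 1.59% of all. A match is a description of letters in a window and not a binding site, and the cause of the differing shares was not tested.

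Windows of *Ptprc*, which chose the groups, and of 3 called genes, picked because they hold a match (12 of the 47 called genes do), are printed 5′ to 3′ on the strand of the gene, with AGGAAGT or its reverse complement in capitals. That of *Ptprc* (chr1:138175306-138175555, minus strand) holds 2 matches, which begin 113 and 58 bases before the start. Those of *Tlr1* (chr5:64933559-64933808, minus strand), *Ctsc* (chr7:88277835-88278084, plus strand) and *Ctss* (chr3:95526536-95526790, plus strand, 5 bases past the start) hold 1 each, beginning 22, 151 and 2 bases before the start. A second window of *Tlr1* (chr5:64932700-64932949) holds 0 matches.
Ptprc: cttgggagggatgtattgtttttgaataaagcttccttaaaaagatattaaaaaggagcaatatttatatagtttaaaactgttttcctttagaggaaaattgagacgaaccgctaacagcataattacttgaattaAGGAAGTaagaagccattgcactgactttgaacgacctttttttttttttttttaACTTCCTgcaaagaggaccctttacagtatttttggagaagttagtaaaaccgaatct
Tlr1: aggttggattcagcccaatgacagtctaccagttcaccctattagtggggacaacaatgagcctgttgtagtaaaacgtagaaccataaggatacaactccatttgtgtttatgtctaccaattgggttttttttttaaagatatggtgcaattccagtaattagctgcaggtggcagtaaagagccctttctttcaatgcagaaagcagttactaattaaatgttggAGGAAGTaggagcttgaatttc
Ctsc: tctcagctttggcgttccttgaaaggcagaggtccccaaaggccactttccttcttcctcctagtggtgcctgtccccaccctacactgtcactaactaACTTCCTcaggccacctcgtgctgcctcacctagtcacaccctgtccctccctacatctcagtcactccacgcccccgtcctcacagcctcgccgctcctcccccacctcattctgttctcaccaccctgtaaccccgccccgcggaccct
Ctss: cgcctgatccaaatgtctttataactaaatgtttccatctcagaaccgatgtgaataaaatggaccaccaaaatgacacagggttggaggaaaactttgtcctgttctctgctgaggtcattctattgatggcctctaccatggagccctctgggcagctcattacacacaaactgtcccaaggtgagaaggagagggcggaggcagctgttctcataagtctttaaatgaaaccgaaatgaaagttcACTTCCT

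The 14 pan-leukocyte genes other than *Ptprc* all had positive log2 fold changes, with a median of 1.20, and 13 had an unadjusted p under 0.05. edgeR called 1 of them (*Dock2*) and DESeq2 8. *Laptm5*, a lysosomal protein of leukocytes, had 67.0, 146 and 160 CPM in Ptprc-high and 23.6, 54.5 and 102 in Ptprc-low tumors (log2 fold change 1.15, edgeR adjusted p = 0.0908). *Cd53*, a leukocyte tetraspanin, had 59.5, 97.1 and 105 CPM against 18.5, 23.5 and 115 (log2 fold change 1.30, edgeR adjusted p = 0.157), and R-13 of the Ptprc-low tumors was above all Ptprc-high tumors. *Ikzf1*, the lymphoid factor Ikaros, had the smallest value, 20.1, 27.4 and 36.3 CPM against 7.22, 20.4 and 34.2 (log2 fold change 0.45, edgeR adjusted p = 0.503). Ranked by the mean of this list in place of *Ptprc*, 6 of 7 tumors stayed in each group and 81 genes were called.

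**Figure D4:**
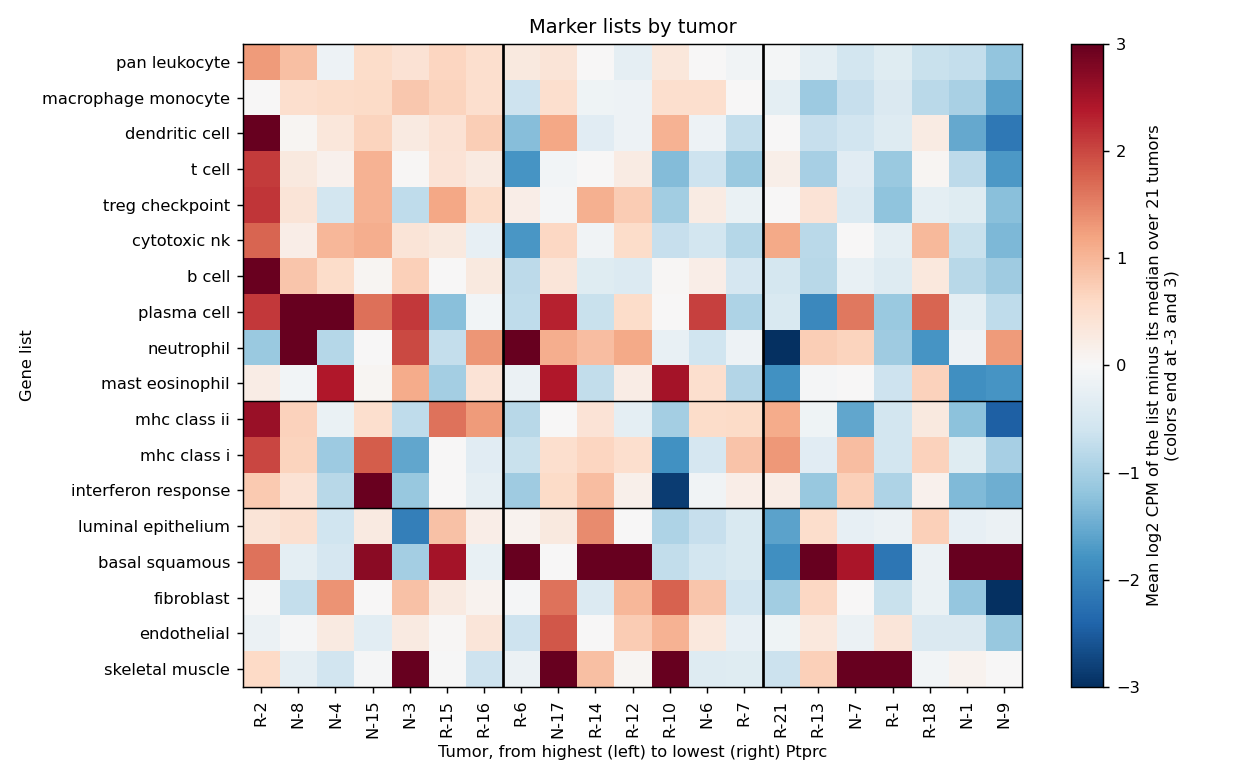
Mean log2 CPM of 18 gene lists in the 21 tumors, as color for the difference from the median of the list over all tumors (colors end at -3 and 3), with tumors ordered by *Ptprc* and vertical lines between the groups. The macrophage and monocyte list separates the 7 Ptprc-high from the 7 Ptprc-low tumors, while R-2 stands highest for the T cell, B cell and dendritic cell lists and N-8 for the plasma cell and neutrophil lists.

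Of 18 T cell genes tested edgeR called 0, with 14 at an unadjusted p under 0.05 and 16 with a positive log2 fold change (median 1.56), and DESeq2 called 6. *Cd3e*, a signalling chain of the T cell receptor, had 4.43, 5.91 and 16.4 CPM in Ptprc-high and 0.536, 1.55 and 5.36 in Ptprc-low tumors (log2 fold change 1.70, SE 0.52, edgeR adjusted p = 0.168). R-2 was far above the others, and R-21 and R-18 reached into the Ptprc-high range. *Icos*, a costimulatory receptor, had the largest value of the list, with 0.211, 0.262 and 1.74 CPM against 0.0268, 0.103 and 0.212 (log2 fold change 2.18, edgeR adjusted p = 0.127) and a log2 fold change of 1.42 without R-2.

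*Bcl11b*, a T cell factor that skin and mammary epithelium also use, had the smallest value of the list, with 2.17, 6.17 and 78.6 CPM against 0.750, 46.5 and 167 (log2 fold change -1.52, edgeR adjusted p = 0.518), and ran from -2.66 without N-3 to -0.90 without N-1. Without R-2 the median of the T cell list was 1.01. Its mean log2 CPM was -0.12, 0.15 and 1.96 in the Ptprc-high and -1.86, -0.92 and 0.04 in the Ptprc-low tumors, and 5 of 7 Ptprc-high tumors lay above all Ptprc-low tumors.

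For regulatory T cell and checkpoint genes, 9 of 10 were tested and edgeR called 0, with 4 at an unadjusted p under 0.05, 8 positive and a median log2 fold change of 1.38, and DESeq2 called 2. *Foxp3*, the factor of regulatory T cells, had 0.0696, 0.506 and 2.53 CPM against 0.0134, 0.145 and 0.426 (log2 fold change 1.89, edgeR adjusted p = 0.272), and *Pdcd1*, the gene of PD-1, had 0.141, 0.951 and 1.94 CPM against 0.0938, 0.274 and 0.735 (log2 fold change 1.55, edgeR adjusted p = 0.262). R-2 was highest in both. *Cd274*, the gene of its ligand PD-L1, had 4.60, 8.42 and 101 CPM against 2.46, 4.54 and 11.5 (log2 fold change 2.22, edgeR adjusted p = 0.171), where N-15 alone held 101 CPM (1.02 without it). *Tigit*, an inhibitory receptor, had the smallest value of the list, with 0.101, 0.197 and 1.04 CPM against 0.0402, 0.141 and 7.69 (log2 fold change -1.75, edgeR adjusted p = 0.485), and turned to 1.40 without R-13, its highest tumor. Without R-2 *Foxp3* had 1.02.

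For cytotoxic and NK cell genes, 11 of 15 were tested and edgeR called 0, with 3 at an unadjusted p under 0.05 (2 of them on the higher side), 9 positive and a median log2 fold change of 0.77, and DESeq2 called 1. *Gzmb*, the granule protease granzyme B, had 0.0743, 0.424 and 0.661 CPM in Ptprc-high and 0.268, 0.852 and 1.25 in Ptprc-low tumors (log2 fold change -1.08, edgeR adjusted p = 0.292), so that no Ptprc-high tumor reached the Ptprc-low median. *Klrb1c*, the NK1.1 receptor, had 0.520, 1.82 and 16.7 CPM against 0.0938, 0.368 and 1.54 (log2 fold change 2.77, edgeR adjusted p = 0.157), with R-15 highest. *Cd8a* had 0.297, 1.04 and 4.35 CPM against 0, 0.657 and 2.54 (log2 fold change 1.10, edgeR adjusted p = 0.575). The list's mean placed 1 Ptprc-high tumor, R-2, above all Ptprc-low tumors, and its median was 1.22 without R-21.

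Of 16 B cell genes 8 had enough counts to be tested, and edgeR called 0, with 3 at an unadjusted p under 0.05, 7 positive and a median log2 fold change of 1.01 (0.71 without R-2), and DESeq2 called 2. *Ms4a1*, a B cell surface gene too low to be tested, stood at most at 0.619 CPM in any Ptprc-high and at 0.0423 CPM in any Ptprc-low tumor. *Cd79b*, a signalling chain of the B cell receptor, had 0.494, 0.661 and 2.02 CPM against 0.0414, 0.422 and 0.888 (log2 fold change 0.98, edgeR adjusted p = 0.427), with a log2 fold change of 0.59 without R-2. *Fcmr*, the Fc receptor for IgM, had the smallest value, with 0.0149, 0.211 and 0.603 CPM against 0, 0.183 and 1.65 (log2 fold change -0.70, edgeR adjusted p = 0.759), and turned to 0.60 without R-13. In R-2, beside its high *Cr2* and *Spib*, *Fcer2a* stood at 3.28 CPM (at most 0.0912 in any other tumor), and *Cd79b*, *Ighd* and *Blk* at 2.02, 1.59 and 1.11 CPM were the highest of all 21 tumors, while its *Ms4a1* of 0.314 CPM lay below those of N-3, N-8 and N-4.

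Plasma cell genes varied over a wide range within each group. Of 9 tested of 12, edgeR called 0, with 4 at an unadjusted p under 0.05, 7 positive and a median log2 fold change of 1.77, and DESeq2 called 4. *Jchain*, which joins secreted IgA and IgM, had 0.0743, 5.71 and 19.3 CPM in Ptprc-high and 0.0414, 0.279 and 2.09 in Ptprc-low tumors (log2 fold change 3.72, SE 1.09, edgeR adjusted p = 0.155). *Igkc*, the constant part of the kappa light chain, had 0.409, 22.8 and 152 CPM against 0.188, 1.95 and 17.3 (log2 fold change 3.27, edgeR adjusted p = 0.241). N-8 was highest for *Jchain* and N-4 for *Igkc*, and both are the tumors of gland 4. Without these 2 tumors the median of the list was 0.75, without R-18 it was 3.73 and without N-7 it was 2.83.

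*Derl3*, a gene of the secretory pathway of plasma cells, had 0.197, 0.908 and 3.32 CPM against 0.165, 4.49 and 9.96 (log2 fold change -1.52, edgeR adjusted p = 0.372). *Mzb1*, another secretory gene of plasma cells, stayed below 0.592 CPM in both groups (log2 fold change 0.79, edgeR adjusted p = 0.695).

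All 12 dendritic cell genes were tested and had positive log2 fold changes. edgeR called 0, with 7 at an unadjusted p under 0.05 and a median of 1.51, which was 0.95 without R-2, and DESeq2 called 3. *Flt3*, the receptor on which dendritic cells depend, had 0.429, 0.942 and 24.3 CPM against 0.0402, 0.340 and 0.909 (log2 fold change 3.49, edgeR adjusted p = 0.153). *Xcr1*, the receptor of cross-presenting dendritic cells, had 0.816, 1.20 and 42.1 CPM against 0.0207, 0.809 and 1.18 (log2 fold change 3.58, edgeR adjusted p = 0.196). *Siglech*, of plasmacytoid dendritic cells, had 0.471, 1.03 and 9.82 CPM against 0, 0.188 and 1.18 (log2 fold change 2.93, edgeR adjusted p = 0.18). R-2 held the highest value of all 3 genes, and without it the log2 fold changes were 1.22, 1.01 and 1.82.

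For neutrophil genes, 11 of 14 were tested and edgeR called 0, with 3 at an unadjusted p under 0.05, 10 positive and a median log2 fold change of 1.22, and DESeq2 called 3. The median was 0.34 without N-8 and 1.94 without N-9. *Csf3r*, the receptor for the growth factor of neutrophils, had 3.94, 14.9 and 46.3 CPM in Ptprc-high and 5.27, 8.42 and 15.1 in Ptprc-low tumors (log2 fold change 0.94, edgeR adjusted p = 0.321), with a log2 fold change of 0.53 without N-8. The calprotectin gene *S100a8* had 0.695, 6.09 and 91.2 CPM against 0.0441, 8.14 and 59.5, with overlap across the whole range. Its partner *S100a9* had the smallest value of the list, with 0.215, 0.909 and 17.5 CPM against 0, 1.75 and 37.4 (log2 fold change -0.95, edgeR adjusted p = 0.774), and turned to 1.04 without R-13. R-6, with intermediate *Ptprc*, held 313 CPM of *S100a8*, above all tumors of both groups.

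For mast cell and eosinophil genes, 7 of 12 were tested and edgeR called 0, with 5 at an unadjusted p under 0.05, 6 positive and a median log2 fold change of 3.06 (0.91 without N-4), and DESeq2 called 2. The mast cell proteases *Cpa3* and *Cma1* reached 26.9 and 9.22 CPM in N-4 and had medians of 0.198 and 0.313 CPM in the Ptprc-high tumors. *Siglecf*, a receptor of eosinophils and of some macrophages and neutrophils, had 0.496, 1.07 and 9.10 CPM against 0.134, 0.237 and 0.589 (log2 fold change 3.36, edgeR adjusted p = 0.0656). *Ccr3*, the eotaxin receptor, had the smallest value, with 0.149, 0.487 and 1.06 CPM against 0.0804, 0.134 and 3.71 (log2 fold change -0.22, edgeR adjusted p = 0.929), and turned to 1.43 without R-1.

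**Figure D5:**
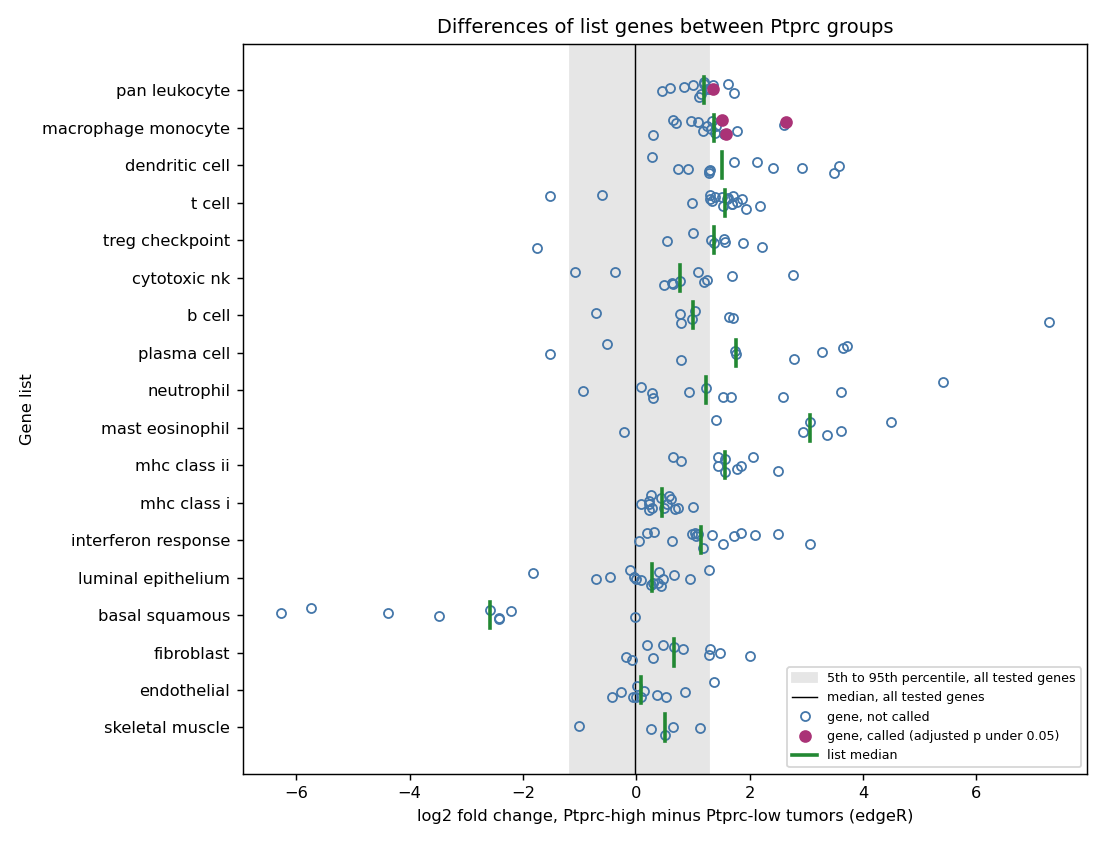
Log2 fold change, Ptprc-high minus Ptprc-low, of each tested gene by list, with green bars at the median of each list, called genes filled, and grey from the 5th to the 95th percentile of all tested genes (-1.17 to 1.29). The medians of the macrophage and monocyte, T cell and dendritic cell lists are 1.37, 1.56 and 1.51, against -0.03 over all genes, and the called genes shown are in the macrophage and monocyte and the pan-leukocyte lists.

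CD45 acts on the kinases that phosphorylate ITAM chains, and these chains mark the lineage that carries them. Of 7 chains tested of 8, edgeR called 1 higher and 6 had an unadjusted p under 0.05, with all 7 positive and a median log2 fold change of 1.70, and DESeq2 called 5. The called chain was *Tyrobp* (DAP12), which serves receptors of myeloid and NK cells, with 18.4, 25.8 and 29.8 CPM in Ptprc-high and 6.05, 10.1 and 16.3 in Ptprc-low tumors (log2 fold change 1.14, SE 0.23, edgeR adjusted p = 0.0461, and 0.124 without N-7). The groups did not overlap in *Tyrobp*. With counts summed per mouse, or without mouse P497, edgeR called 0 chains. *Fcer1g*, the common chain of Fc receptors, had 24.5, 44.8 and 67.2 CPM against 11.1, 22.1 and 29.7 (log2 fold change 1.12, edgeR adjusted p = 0.0815).

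Among the T cell chains, whose values overlapped between the groups, *Cd3d* had 0.162, 0.609 and 1.62 CPM against 0.0414, 0.152 and 0.444 (log2 fold change 1.78, edgeR adjusted p = 0.194), *Cd3g* 0.239, 0.609 and 1.82 CPM against 0.0134, 0.184 and 0.4996 (log2 fold change 1.94, edgeR adjusted p = 0.174) and *Cd247*, the zeta chain, 0.267, 0.719 and 1.84 CPM against 0.103, 0.164 and 0.550 (log2 fold change 1.87, edgeR adjusted p = 0.13). *Cd79a*, of the B cell receptor, was too low to be tested, at most 0.418 CPM in any tumor of either group.

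Of 10 ITAM kinase genes tested of 11, edgeR called 0, with 6 at an unadjusted p under 0.05, all 10 positive and a median log2 fold change of 1.19, and DESeq2 called 5. *Lck*, the Src family kinase of T cells, had 2.38, 2.90 and 16.3 CPM against 0.930, 2.51 and 5.53 (log2 fold change 0.99, edgeR adjusted p = 0.387), with N-15 highest (0.50 without it). *Zap70*, which binds phosphorylated ITAMs in T cells, had 0.222, 1.28 and 3.56 CPM against 0.184, 0.438 and 0.692 (log2 fold change 1.69, edgeR adjusted p = 0.162). *Csk*, a broadly expressed kinase that opposes CD45, had 53.8, 101 and 131 CPM against 65.5, 75.4 and 127 (log2 fold change 0.14, edgeR adjusted p = 0.797).

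Genes of antigen presentation by MHC class II, which macrophages, dendritic cells and B cells share, had positive log2 fold changes in all 10 tested, with a median of 1.57. edgeR called 0 of them, 8 had an unadjusted p under 0.05, and DESeq2 called 1. *Cd74*, the invariant chain, had 172, 1397 and 2769 CPM in Ptprc-high and 67.9, 290 and 1599 in Ptprc-low tumors (log2 fold change 1.56, edgeR adjusted p = 0.297), and *H2-Ab1* had 84.2, 540 and 1401 CPM against 30.2, 109 and 547 (log2 fold change 1.78, edgeR adjusted p = 0.217). R-2 was highest and R-21 was the highest of the Ptprc-low tumors in both. *H2-Aa* had a log2 fold change of 1.56 (edgeR adjusted p = 0.31), *H2-Eb1* of 2.06 (0.17), *H2-DMa* of 1.44 (0.194), *H2-DMb1* of 0.64 (0.521) and *H2-DMb2* of 0.79 (0.52).

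The class II genes *H2-Oa* and *H2-Ob* had log2 fold changes of 2.51 and 1.84 and *Ciita*, the class II transactivator, of 1.44. The edgeR adjusted p was 0.27, 0.291 and 0.29 in this order, and R-2 was highest in each. R-2 held 10.4 CPM of *H2-Oa*, where the Ptprc-high median was 0.520 and the highest Ptprc-low tumor had 0.804. Without R-2 the values were 0.34, 0.91 and 0.95. Class I genes, present in all cells, had smaller values. All 14 had positive log2 fold changes with a median of 0.46, edgeR and DESeq2 each called 0, and 0 had an unadjusted p under 0.05. The median was 0.03 without R-2 and 0.16 without N-15.

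Of 16 interferon response genes edgeR called 0 and DESeq2 2, with 5 at an unadjusted p under 0.05, all 16 positive and a median log2 fold change of 1.13. The median was 0.15 without N-15, which was highest in each of the genes named here: it held 806 CPM of *Gbp2* and 292 of *Ifit1*, where the Ptprc-high medians were 78.1 and 26.4 CPM. The interferon-induced chemokines went with it. *Cxcl9* had 2.02, 6.81 and 188 CPM in Ptprc-high and 0.476, 1.13 and 7.57 in Ptprc-low tumors (log2 fold change 3.68, edgeR adjusted p = 0.172), and *Cxcl10* 2.14, 5.89 and 114 CPM against 0.639, 2.998 and 5.35 (log2 fold change 3.45, edgeR adjusted p = 0.122). Without N-15 they had 2.38 and 2.29.

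Among chemokine ligands as a whole, 30 of 34 were tested, and edgeR called 0, with 14 at an unadjusted p under 0.05 (13 on the higher side), 25 positive and a median log2 fold change of 1.18, and DESeq2 called 6. *Ccl5*, a chemokine that draws T cells and monocytes, had 0.262, 0.570 and 2.81 CPM against 0.0670, 0.384 and 0.970 (log2 fold change 1.24, edgeR adjusted p = 0.361), with a log2 fold change of 0.82 without R-2. *Cxcl3*, a neutrophil attractant, had the smallest value, with 0.0331, 0.435 and 0.646 CPM against 0, 0.127 and 12.2 (log2 fold change -2.41, edgeR adjusted p = 0.388), and turned to 0.79 without R-13.

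Chemokine receptors held 3 called genes of 14 tested of 18, with 9 at an unadjusted p under 0.05 on the higher side, 12 positive and a median log2 fold change of 1.59, and DESeq2 called 4. Besides *Ccr2* these included *Ccr1*, of monocytes and neutrophils, with 31.2, 55.5 and 69.1 CPM in Ptprc-high and 9.37, 17.8 and 32.4 in Ptprc-low tumors (log2 fold change 1.57, SE 0.28, edgeR adjusted p = 0.037, and 0.109 without N-7). R-13, the highest of the Ptprc-low tumors for *Ccr1*, lay above the lowest Ptprc-high tumor. edgeR called 1 gene of the list with counts summed per mouse and 2 without mouse P497. Of receptors of lymphocytes, which were not called, *Cxcr6* had medians of 2.64 and 0.844 CPM in the Ptprc-high and Ptprc-low tumors, *Ccr6* of 1.78 and 0.401, *Cxcr3* of 0.656 and 0.563 and *Ccr7* of 0.639 and 0.511. R-2 was the highest of the Ptprc-high tumors in all 4.

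The remaining 4 called genes were lower in the Ptprc-high tumors. With counts summed per mouse edgeR called 0 genes lower. *Hook2*, which links cargo to microtubules, had 17.6, 18.8 and 23.7 CPM in Ptprc-high and 26.8, 38.9 and 51.1 in Ptprc-low tumors, with no overlap (log2 fold change -0.92, SE 0.17, edgeR adjusted p = 0.0423). *Cyp46a1*, a cholesterol hydroxylase, had medians of 0.165 and 1.84 CPM (log2 fold change -3.43, edgeR adjusted p = 0.0445), and *Lgals4*, a galectin of gut epithelium, of 0.416 and 2.33 CPM (log2 fold change -2.55, edgeR adjusted p = 0.0473). *Aloxe3*, a lipoxygenase of the epidermis, was the fourth (edgeR adjusted p = 0.0461). Without N-7 the adjusted p was 0.109 for *Hook2* and *Cyp46a1* and 0.124 for *Lgals4*.

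Lists of other cell types held no gene called by edgeR in the fit of all 14 tumors. Of 9 basal and squamous genes tested all had negative log2 fold changes with a median of -2.57 and 3 had an unadjusted p under 0.05 (DESeq2 called 2). The median was -1.65 without mouse P497 and turned to 0.59 with 10 against 10 tumors. *Krt5*, a basal keratin, had 0.0580, 4.96 and 120 CPM in Ptprc-high and 0.0147, 49.8 and 4804 in Ptprc-low tumors, with the highest value in the squamous R-13, and *Krt10*, of differentiating epidermis, reached 286 CPM in the spindle cell tumor N-1. Of 8 milk protein genes 4 had an unadjusted p under 0.05 on the lower side and the median was -3.77 (1.11 without R-18, the tumor with the most milk protein RNA), and DESeq2 called 0, with a median of 0.43 in its own fit.

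The 16 luminal epithelium genes had a median log2 fold change of 0.28, with 1 at an unadjusted p under 0.05 (on the lower side) and 0 called by DESeq2, and the epithelial adhesion gene *Epcam* had medians of 762 and 684 CPM in the Ptprc-high and Ptprc-low tumors. The medians were 0.66 for 11 fibroblast genes (2 at an unadjusted p under 0.05, 1 called by DESeq2), 0.08 for 11 endothelial genes (3 and 1), 0.69 for 8 mural and smooth muscle genes (2 and 2), 0.85 for 4 adipocyte genes (0 and 0), 0.51 for 5 skeletal muscle genes (0 and 0) and -0.11 for 12 cell cycle genes (0 and 0). Most of these medians moved with single tumors. That of luminal epithelium was -0.05 without N-15, that of fibroblasts ran from 0.30 without N-4 to 1.19 without R-13, and that of endothelium from -0.04 without N-9 to 0.18 without R-13. That of mural and smooth muscle was 1.13 without R-13, that of adipocytes 0.32 without N-3, 0.46 without R-2 and 0.48 without N-4, and that of the cell cycle ran from -0.29 without N-3 to 0.04 without N-4. The skeletal muscle value turned to -3.29 without N-3 and was 2.85 without R-1. The mean log2 CPM of that list was 5.15 in N-3 of the Ptprc-high tumors and 4.75 in R-1 and 1.21 in N-7 of the Ptprc-low tumors, and -2.13 or lower in the other tumors of both groups.

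The genes of the engineered alleles overlapped between the groups. edgeR called 0 of 2 tested and DESeq2 called 1. *Erbb2*, which carries the activated *Neu* cDNA, had 58.6, 1121 and 2731 CPM in Ptprc-high and 260, 798 and 1083 in Ptprc-low tumors, and *Rhoc* 22.5 (in R-2), 98.9 and 173 CPM against 26.1, 70.2 and 138. *Gata4* was at most 0.103 CPM in the Ptprc-low tumors and had a median of 1.06 CPM in the Ptprc-high tumors, with 50.6 in N-15.

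The labelled comparison of the study, RhoC against control tumors, was then applied to the leukocyte lists over all 21 tumors. Of 118 leukocyte genes tested edgeR called 0, where 43 of all 19315 genes (0.223%) were called. An unadjusted p under 0.05 was found for 18 of the 118, against 3951 (20.5%) of all genes, and 58 had lower values in RhoC tumors, with a median log2 fold change, RhoC minus control, of 0.01. Without R-2, whose *Rhoc* was the lowest of all, 74 of 117 had lower values in RhoC tumors and the median was -0.21. DESeq2 called 7 of the 135 with an adjusted p (*Cma1*, *Ccl22*, *Jchain*, *Tigit*, *Igkc*, *Ighg1* and *Iglc2*), against 5.94% of all genes. Without N-15 edgeR called 3 (*Ccl22*, *Igkc* and *Ighg1*), where 1.77% of all genes were called, and without R-18 it called 1 (*Ighg1*), where 0.417% were.

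By lineage the medians of these cohort log2 fold changes were -0.24 for macrophages and monocytes (14 of 18 genes lower in RhoC tumors), 0.19 for T cells (7 of 18), -1.95 for plasma cells (8 of 9, with 5 at an unadjusted p under 0.05) and 0.77 for dendritic cells (3 of 12). Without R-2 the T cell median turned to -0.35 (14 of 18), that of plasma cells was -3.07 and that of dendritic cells 0.08, and the T cell median was 0.47 without N-15 and that of macrophages and monocytes -0.10 without N-8. By voom with mouse as a random effect the T cell median was -0.04 (9 of 18) and that of macrophages and monocytes -0.08 (11 of 18), and DESeq2 gave 0.17 for dendritic cells (4 of 12). A further fit used only tumors whose number both cohorts share, with the number as a block. There the medians were 0.12 for macrophages and monocytes (7 of 18), -0.82 for T cells (14 of 16), -3.45 for plasma cells (6 of 8) and -0.19 for dendritic cells (7 of 12). In the Ptprc-high tumors *Jchain* stood at 3.34 to 19.3 CPM in the 4 controls and at 5.71 in R-2, 0.579 in R-16 and 0.0743 in R-15 of the RhoC cohort. In the Ptprc-low tumors it stood at 0.0938 to 1.17 CPM in the 3 controls and at 0.0414 to 2.09 in the 4 RhoC tumors.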

How the data were processed

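RNA was sequenced from 21 mammary tumors of female mice, and the sample labels gave their cohorts. The authors deposited 1 table of whole-number read counts per tumor, not normalized. Per the labels and the study's methods, RNA (Qiagen RNeasy) was depleted of ribosomal RNA and made into stranded libraries. Reads were checked with FastQC 0.11.5, trimmed with Trim Galore 0.5.0, aligned with STAR 2.6.0c to GRCm38.p6 and counted with HTSeq 0.6.1p2 (submitters' processing notes), uniquely mapping reads only, with reads on more than 1 gene discarded. The strand setting of the counting and the annotation release are not given in the sources used here. The authors also deposited FPKM, used here only as medians, beside columns of their own comparison of the cohorts (fold changes and p-values), which were not used.

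The 49652 genes in the files, 38730 of them with a count, were named from a gene name table and the deposited table (272 stayed unnamed). Tumors were ranked on *Ptprc* as TMM log2 CPM (prior count 2) and cut into 7, 7 and 7. The 14 tumors of the outer groups were compared with edgeR 4.0.16 in R 4.3.3 (filterByExpr by group, glmQLFit, glmQLFTest, no covariates). *Ptprc* was left out before Benjamini-Hochberg adjustment, and genes were called under 0.05. The SE printed beside a log2 fold change was derived from it and the F statistic (absolute log2 fold change over the root of F). The p-values measure the spread between tumors and treat tumors of 1 mouse as independent, which nothing in the labels shows. In voom with mouse as a random effect the correlation within a mouse was 0.46 for the Ptprc groups and 0.27 for the cohorts. Cohort and group were compared with Fisher's exact test, and the *Ptprc* level of the cohorts with an exact permutation test (SciPy 1.17.1, Python 3.11.15, pandas 2.3.3), both two-sided. The leukocyte lists (141 genes, 117 of them tested) and the lists of other cell types were written by hand, and the groups, members and lists were chosen with earlier results of these data known.

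Genes were named by a rule: *Ptprc*, the first 3 genes of each list, the tested genes with the largest and the smallest log2 fold change of each list, all ITAM chain and MHC class II genes, the engineered genes, and, for each direction, the 8 called genes of lowest adjusted p with a mean log2 CPM over 0. Others were chosen after their values were seen. Some genes that the rule names are not reported here, most of them of the MHC class I, interferon and other cell type lists.

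In simulated counts for 18873 genes (those tested and *Ptprc*), the fit of the Ptprc groups recovered 11% of 100 genes changed 2-fold and 58% of 100 changed 4-fold and called 0 unchanged genes. The cohort fit, on 19315 genes, recovered 46% and 81% and called 7 unchanged genes.

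Alternatives were DESeq2 1.42.0, no filter on low counts, library size in place of TMM, all 21 tumors in the fit, cohort as a covariate, counts summed per mouse, voom from limma 3.58.1 with mouse as a random effect, other cuts and rankings, fits without mouse P497, without squamous or spindle cell tumors, and without each tumor. Fits without the tumors of gland 4 and without those with skeletal muscle genes were added after seeing the data. Tumor numbers shared by the cohorts (4) were not found to pair tumors.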

Additional observations from a re-analysis of the deposited data

Results flagged for a closer look

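Within the Ptprc-high tumors R-2 lay far from the other 6 in 3 lineage means (Dixon's test at 95%). Its mean log2 CPM was 1.03 for the B cell list and 3.75 for the dendritic cell list, both the highest, and 5.38 for the macrophage and monocyte list, the lowest of the group. N-3 lay far above the others for the skeletal muscle list, with 5.15. Of 24 group means examined 4 stood apart in this way, and chance alone flags about 1 in 20.

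The difference between Ptprc-high and Ptprc-low tumors itself differed between the cohorts for 5 of 18872 genes by an interaction term in edgeR (adjusted p under 0.05), with 1314 at an unadjusted p under 0.05. The interaction on the log2 scale, RhoC minus control, was 4.74 for *Eif1*, 4.67 for *Nt5c3b*, 4.74 for *Gm6900*, 5.16 for *Jup* and 4.51 for *Gm10157*. In the controls the Ptprc-high minus Ptprc-low difference in mean log2 CPM was -4.08 for *Eif1*, a translation initiation factor, -4.78 for *Jup*, the junction protein plakoglobin, -4.41 for *Nt5c3b*, -4.16 for *Gm6900* and -3.79 for *Gm10157*. In the RhoC tumors it was 0.72, 0.59, 0.36, 0.38 and 0.73, in the same order. *Eif1* (chr11:100319885-100322096), *Jup* (chr11:100368958-100397763) and *Nt5c3b* (chr11:100422321-100441808) are neighbours on chromosome 11, which also holds *Erbb2*, where the *Neu* cDNA sits. The paper reports copy number gains of the *Erbb2* locus in control tumors, with wide variation. All 5 genes had their highest mean in the Ptprc-low controls. Whether copy number plays a part was not tested. None of the 5 is on a leukocyte list, and these groups hold 3 or 4 tumors each.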

How the results depend on the processing

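Between Ptprc-high and Ptprc-low tumors 67 genes were called, against 924 by DESeq2, 12 with no filter on low counts, 8 with library size in place of TMM, 130 with all 21 tumors in the fit, 11 with counts summed per mouse and 146 by voom with mouse as a random effect. Other cuts called 21 (5 against 5) and 0 (10 against 10), and ranking on the library size called 13. Without mouse P497 there were 40 calls, without squamous cell carcinomas 260, without the spindle cell tumor 8, and 0 without the tumors of gland 4 or without those with skeletal muscle genes. With 1 tumor left out at a time the count ran from 2 to 260. The cause was not tested. The basal and squamous median of -2.57 turned to 0.59 with 10 against 10. With library size the median log2 fold change of all genes moved from -0.03 to -0.145. Cohort as a covariate (100 calls) and ranking on the pan-leukocyte list (81) stayed within 1.5 times.

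Of the genes whose log2 fold change is given, 7 turned their sign. *Mertk* was -0.0126 with 10 against 10 and *Cdh2* -0.0528 with tumors ranked by the pan-leukocyte list. *Tigit* (-1.75) was 1.31 by DESeq2 and 1.40 without squamous cell carcinomas. In the fits of 5 against 5, of 10 against 10, without mouse P497 and without squamous cell carcinomas *S100a9* was 1.12, 2.23, 1.38 and 1.04 (0.0186 by voom), *Cxcl3* 0.52, 3.61, 0.79 and 0.79 (0.74 by DESeq2) and *Fcmr* 0.57, 0.18, 0.84 and 0.60. *Ccr3* was 0.25 with cohort as a covariate, 0.89 by voom and 1.11 without the tumors with skeletal muscle genes. With 1 tumor left out *Tigit* ran from -2.30 to 1.40, *S100a9* from -2.44 to 1.04, *Cxcl3* from -2.64 to 0.79, *Fcmr* from -1.22 to 0.60 and *Ccr3* from -0.44 to 1.43. For the cohorts, DESeq2 called 7 leukocyte genes, the fit with only *Gata4* loxP/+ controls 2 of 121 (against 2.22% of all genes), and fits without 1 tumor 0 to 3. The *Ptprc* difference, RhoC minus control, ran from -0.21 to 0.08 with 1 tumor left out, positive without N-3 (0.03), N-4 (0.05), N-8 (0.0765), N-15 (0.05), R-1 (0.03) or R-18 (0.03), with no p below 0.05. The Ptprc-high and Ptprc-low tumors share 0 tumor numbers, so that no fit with the number as a block could be made, and mouse P497, with tumors in both groups, was kept as a random effect in voom. Between the cohorts 4 numbers are shared. Same-numbered tumors deviated from their group means with correlations of -0.23, -0.18, -0.01 and 0.01, so the numbers do not pair them, and the fit with the replicate block called 0 of 105 leukocyte genes, with 9 at an unadjusted p under 0.05.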
